A study of Mus musculus with 9 samples.

Results

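The genes that are not olfactory receptor (OR) genes, chosen as those whose symbol does not start with Olfr, were compared between mice exposed to undiluted (100%) heptanal and control mice. They are 22359 of the 23607 genes in the tables, and the 1248 OR genes serve as background. C57BL/6 mice breathed heptanal, an aliphatic aldehyde odorant, or distilled water (control) for 1 hr, and mRNA was then recovered from the olfactory epithelium (OE) by pS6-IP, an immunoprecipitation of ribosomes that carry phosphorylated S6. Each group held 1 mouse at postnatal day 22 (P22), 1 at P21 and 1 at P18, and the mice of a day are littermates of the same sex according to the methods. The 3 mice given 1% heptanal entered the model but are not compared here.

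Olfactory sensory neurons (OSNs) detect odorants with a receptor that raises cAMP through the G protein subunit Gnal and adenylyl cyclase 3, which opens a cyclic nucleotide-gated channel and then the calcium-gated chloride channel Ano2. In neurons, calcium entry and cAMP switch on immediate early genes through kinases and the factors CREB and SRF, and related kinase cascades phosphorylate ribosomal protein S6. The pS6-IP therefore draws mRNA preferentially from cells that were recently active, and the OE that it starts from also holds basal stem cells, supporting (sustentacular) cells, Bowman's glands, ensheathing glia and blood. No input RNA taken before the pS6-IP was analysed here, so more mRNA in a cell, more phosphorylated ribosomes per cell and more cells of a type cannot be told apart.

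Among the genes higher at 100% heptanal were 2 with a full cAMP response element in the window from 250 bases before to 50 after the annotated start. The element, TGACGTCA, is the site that CREB binds, and it reads the same on both strands. These stretches are shown because they are sequence that the genes described below carry close to their starts (RefSeq promoters on GRCm38.p6, minus strand, 5′ to 3′, element in capitals), at chr1:134079303-134079332 for Btg2 and chr13:99900777-99900806 for Cartpt.
Btg2: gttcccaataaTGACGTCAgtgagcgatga
Cartpt: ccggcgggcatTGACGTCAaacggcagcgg
The first base of the element lies 166 bases before the RefSeq start of Btg2 and 112 before that of Cartpt. From the GENCODE starts it lies 201 bases before Btg2, and for Cartpt 154 bases before the start of 1 transcript and 296 bases after that of the other, so its place relative to the start depends on the annotation. Of the 40 genes that passed the threshold, 33 had a promoter in the reference set, and 6.06% of these held the element, against 3.45% of the 10638 tested genes with a promoter. The CArG box, the site of SRF, was in 0 of the 33 and in 1.61% of the tested genes, and the AP-1 site TGANTCA was in 1 of the 33 (3.03%) and in 6.60% of the tested genes. Of the 27 immediate early genes listed below, called or not, 21 had a promoter in the reference set. Of these 21, 2 held the CArG box, 2 the element TGACGTCA and 1 the AP-1 site (9.52%, 9.52% and 4.76%). The CArG box was in 0 of the 4 called genes among them that had a promoter. These matches describe letters in a short window and were not tested for binding.

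The control libraries held 6401014, 7110582 and 8272613 estimated counts and the 100% heptanal libraries 8757718, 7305850 and 8751994, for P22, P21 and P18 in turn, which is the order used for all values below. Values are CPM, counts relative to the library total, after TMM normalization. The 3 P22 mice stood apart from the rest, with scores of 60.2 to 119.7 on the first principal component (57.5% of the variance) against -62.7 to 7.86 in the other mice. In all of the P22 mice 103 non-OR genes were over 4-fold lower than in any other mouse, and 0 were over 4-fold higher. Results are therefore also given without the P22 mice where they matter. The names of the P22 libraries begin with YJC and those of the others with YJE. For the P22 mice, age, litter and name series cannot be told apart. The mature OSN markers Omp, Gnal and Adcy3 were measured in every mouse, as the labelled tissue would have it, and so were markers of sustentacular cells, glands and red cells.

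Of the 14482 non-OR genes with enough counts to be tested, 40 were higher at 100% heptanal at an adjusted p below 0.05 and 0 were lower (edgeR's quasi-likelihood test with the postnatal day as a block and Benjamini-Hochberg adjustment over all genes tested). Over all 14930 genes tested, ORs included, 0.322% were called higher and 0% lower. All 40 were higher in all 3 pairs of littermates, and in 38 the 100% heptanal mice and the control mice did not overlap. Of all genes tested, 5.96% had such a gap upwards and 3.54% downwards. The test that picked the 40 genes used these same mice and pairs, so neither count is separate support for them. Their log2 fold changes ran from 0.84 to 4.98 with a median of 1.15, so that 5 genes changed over 4-fold, 30 from 2- to 4-fold and 5 by less. At an unadjusted p below 0.05, 859 non-OR genes were higher and 556 lower, against 6.63% and 3.79% of all genes tested.

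The number of calls moved with the model far more than the fold changes did. It was 2 higher and 0 lower without the block, which leaves Fosb and Pcdh10, 103 and 12 in a fit of the 6 mice alone, and 179 and 35 with DESeq2. All 40 genes were called in both of the larger sets. Leaving out all P22 mice left 5 genes higher, 4 of them among the 40 (Fosb, Pcdh10, Egr1 and Btg2), leaving out P21 or P18 left 3 and 4, and leaving out a single library left 1, 3 or 6 (controls at P22, P21 and P18) or 14, 9 or 10 (100% heptanal mice). Fosb was called in 9 of the 9 fits that left out mice, Pcdh10 and Egr1 in 8 (each had an adjusted p of 0.0579 without the P22 control), Fos in 5, and 28 of the 40 in none, while all 40 stayed above 0 in each of them.

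**Figure D1:**
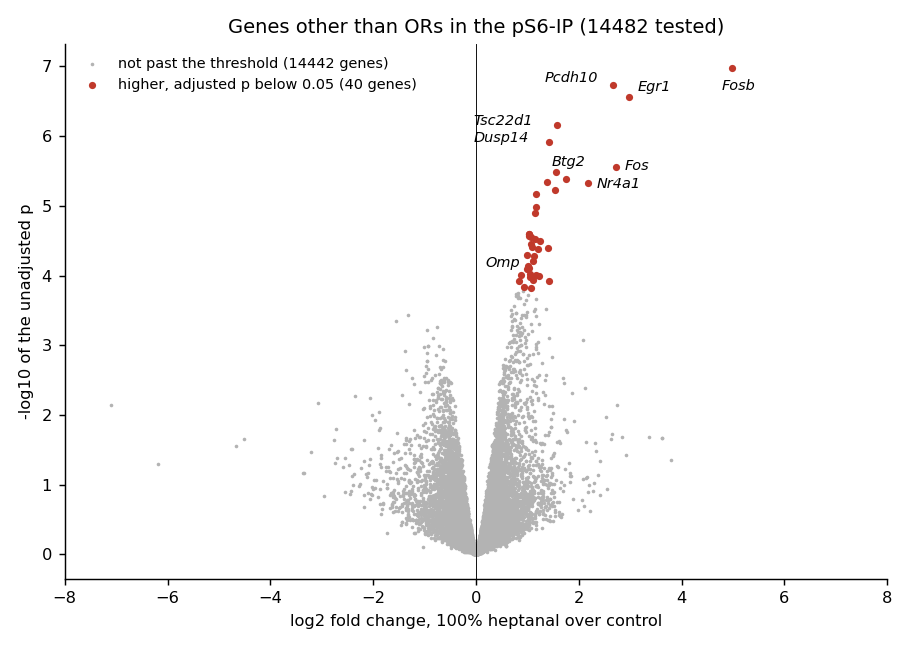
Log2 fold change of 100% heptanal over control (x axis, TMM scaling) against the -log10 of the unadjusted p (y axis) for the 14482 non-OR genes tested, 1 point per gene. The 40 genes with an adjusted p below 0.05 are in red and all lie to the right of 0, with Fosb at 4.98, while the other 14442 in grey spread to both sides.

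Immediate early genes, the transcription factors that neurons induce within minutes of activity, held the biggest changes. Of the 27 genes on this list, 25 were tested, 5 were higher (Fosb, Egr1, Fos, Btg2 and Nr4a1) and 0 lower, 21 lay above 0, and the median log2 fold change was 0.74, beside -0.01 for all non-OR genes tested. Without the P22 mice that median was 0.98. Fosb, a partner of Jun proteins in the AP-1 factor (chromosome 7, 19302696 to 19310051 in GRCm38), had 3.87, 2.40 and 1.77 CPM in the control mice and 88.9, 95.6 and 67.1 CPM at 100% heptanal. The lowest exposed mouse was thus far above the highest control, and the log2 fold change was 4.98 ± 0.32 (SE, adjusted p = 0.00136).

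Egr1, a zinc finger factor (chromosome 18, 34859823 to 34864984), had 31.4, 25.4 and 71.3 CPM in the control mice and 261, 249 and 452 CPM at 100% heptanal. The P18 mouse was the highest of each group, and the groups did not overlap (log2 fold change 2.98 ± 0.21, adjusted p = 0.00136). Fos, the AP-1 subunit most used to mark active neurons (chromosome 12, 85473890 to 85477273), had 51.3, 28.3 and 64.5 CPM in the control mice and 335, 226 and 368 CPM after exposure. The P21 mouse was the lowest in each group, and the fold change was of the same order as that of Egr1 (2.72 ± 0.26, adjusted p = 0.0068). Without the P22 mice the log2 fold changes were 5.26, 2.93 and 2.70 for Fosb, Egr1 and Fos (adjusted p = 0.0202, 0.0362 and 0.0661).

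Nr4a1, an orphan nuclear receptor induced by calcium and cAMP, had 77.1, 67.1 and 109 CPM in the control mice and 273, 457 and 403 CPM at 100% heptanal. Its rise was smallest in the P22 pair, and all exposed mice lay above all controls (log2 fold change 2.18 ± 0.22, adjusted p = 0.00695, and 2.33 with 0.0597 without P22). Btg2, an antiproliferative early response gene and a target of p53, had 99.9, 60.9 and 69.6 CPM in the control mice and 246, 237 and 279 CPM after exposure. The exposed mice were close to one another and the log2 fold change was 1.76 ± 0.17 (adjusted p = 0.00695). It was the 1 called gene among the 13 tested p53 targets, whose median was 0.04.

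The rest of the list did not pass. Of the 20 other tested genes, 10 had an unadjusted p below 0.05 with a value above 0 and 1 with a value below 0. The AP-1 genes Junb, Jun, Jund and Fosl1 had log2 fold changes of 0.99 ± 0.18, 0.74 ± 0.23, 0.46 ± 0.16 and 1.50 ± 0.61 (adjusted p = 0.0697, 0.295, 0.364 and 0.442), so Junb, the nearest to the threshold, moved far less than Fosb. Junb had 53.4, 34.4 and 51.7 CPM in the control mice and 78.8, 83.2 and 114 CPM at 100% heptanal, without overlap. Nr4a2, Ier2, Atf3 and Maff were at 1.10, 0.66, 0.98 and 0.73, with adjusted p of 0.217 to 0.467, Fosl2, Klf10 and Egr2 at 0.66, 0.38 and 1.49 with p of 0.178 or more before adjustment, and Myc, a growth factor-induced regulator, at -0.94 (adjusted p = 0.161), lower in all 3 pairs. The other 6 tested genes lay within 0.25 of 0.

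Npas4, the factor that is selective for neuronal depolarization, was at the edge of detection. It had 0, 4 and 0 counts in the control mice (0, 0.564 and 0 CPM) and 1.03, 1.82 and 2.96 CPM at 100% heptanal, and the adjusted p was 0.461. Egr4 had 0.310, 0.986 and 0.126 CPM against 5.37, 2.10 and 3.30 CPM (adjusted p = 0.44). In both genes every exposed mouse lay above every control, with an unadjusted p of 0.0443 and 0.0370. Egr3 had at most 4 counts in a mouse, and Nr4a3 had 0 in all 6, where 3 counts would be 0.343 to 0.469 CPM by library.

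Arc, which encodes a synaptic capsid-like protein and is an activity marker of cortical neurons, had 7.12, 4.51 and 4.42 CPM in the control mice and 2.86, 7.57 and 5.47 CPM after exposure. The P22 pair went down and the other pairs up, and the log2 fold change was -0.14 ± 0.52 (adjusted p = 0.963). Arc belongs to a list of 30 activity-regulated effectors (synaptic and secreted proteins, growth factors), of which 24 were tested, 0 were called, 13 lay above 0 and the median was 0.04. Nptx2, a secreted pentraxin, and Gem, a small GTPase, had the lowest p there, with 15.8, 23.4 and 9.10 against 39.4, 41.1 and 27.7 CPM and 9.29, 8.17 and 11.1 against 28.7, 33.7 and 26.4 CPM. In both genes the groups did not overlap, and the log2 fold changes were 1.22 ± 0.23 and 1.69 ± 0.42 (adjusted p = 0.0829 and 0.177).

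Among 18 inhibitors of MAP kinase signalling (Dusp, Spry and Spred genes), 16 were tested and Dusp14, a phosphatase that acts on MAP kinases, was higher, while 0 were lower and the median was 0.22. Dusp14 had 143, 266 and 227 CPM in the control mice and 413, 711 and 566 CPM at 100% heptanal. The order of the litters was the same in both groups, and the rise was of like size in each (log2 fold change 1.42 ± 0.12, adjusted p = 0.00361). Dusp1, a phosphatase that itself is an early gene, was at 0.84 ± 0.30 (adjusted p = 0.385), without overlap of the groups.

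**Figure D2:**
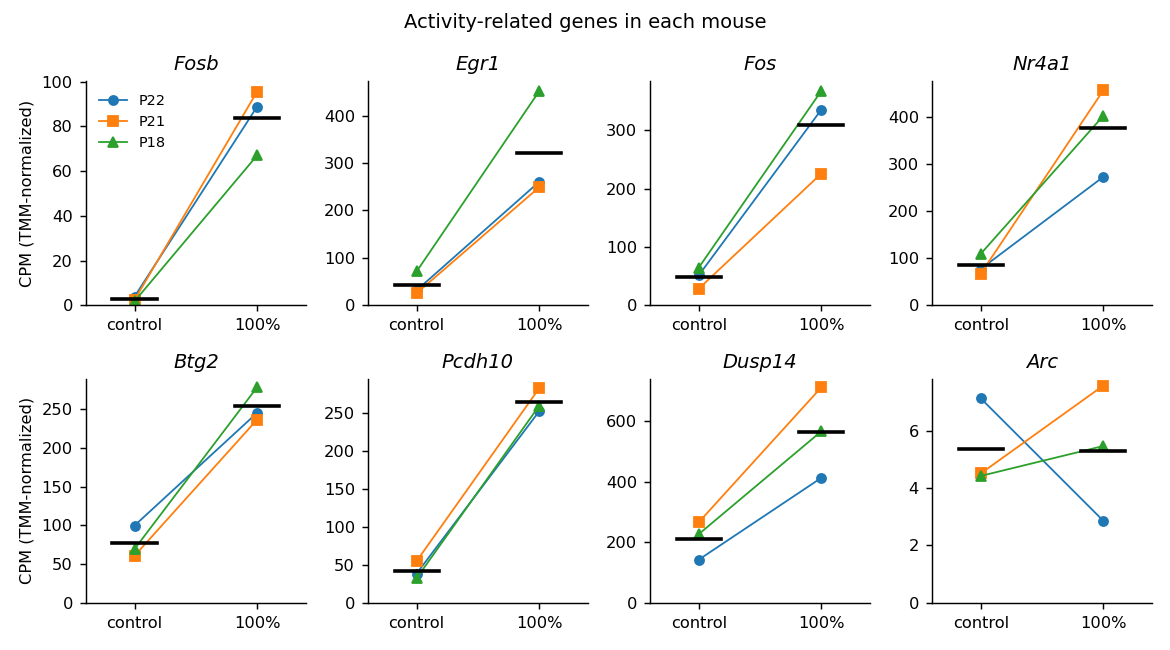
TMM-normalized CPM (y axes, each from 0) of 8 activity-related genes in the 3 control and the 3 100% heptanal mice, with lines joining the mice of a postnatal day and black bars at the group means. In Fosb, Egr1, Fos, Nr4a1, Btg2, Pcdh10 and Dusp14 all exposed mice lie above all controls, and in Arc the lines cross.

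Genes for adhesion and axon sorting held 2 of the 40. Pcdh10, a protocadherin that OSNs express according to their activity (chromosome 3, 45378398 to 45435623), had 38.6, 55.0 and 32.5 CPM in the control mice and 252, 282 and 259 CPM at 100% heptanal. The exposed mice were within a narrow band, and the log2 fold change was 2.67 ± 0.18 (adjusted p = 0.00136, and 2.65 with 0.0319 without P22). Kirrel2, an adhesion molecule of the immunoglobulin family that helps like axons to converge, had 157, 156 and 117 CPM in the control mice and 391, 342 and 244 CPM after exposure, without overlap (log2 fold change 1.17 ± 0.12, adjusted p = 0.00775). All 22 genes of the list were tested, 15 lay above 0, and the median was 0.23.

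Other genes of low p were not on the activity lists. Tsc22d1, a leucine zipper regulator induced by growth factors, had 979.8, 1218 and 1048 CPM in the control mice and 2850.0, 3799 and 3023 CPM at 100% heptanal, with 34.5% of its counts coming from reads that also mapped elsewhere. Its groups did not overlap (log2 fold change 1.57 ± 0.13, adjusted p = 0.00263). Cartpt, the precursor of the CART neuropeptide, had 110.4, 89.6 and 71.8 CPM in the control mice and 289, 224 and 194 CPM after exposure. Nrn1l, a relative of the activity-regulated neuritin, and Hs3st1, a heparan sulphate sulfotransferase, had 111, 103 and 62.6 against 412, 253 and 173 CPM and 49.7, 36.4 and 30.2 against 125, 103 and 105 CPM.

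In Cartpt, Nrn1l and Hs3st1 the P22 mouse was the highest of each group, and the ranges were separate. Their log2 fold changes were 1.38 ± 0.14, 1.56 ± 0.15 and 1.54 ± 0.16 (adjusted p = 0.00695, 0.00695 and 0.00739). Nfatc1, a factor that calcineurin sends to the nucleus, had 134, 163 and 106 CPM in the control mice and 268, 322 and 233 CPM at 100% heptanal, also without overlap (log2 fold change 1.04 ± 0.13, adjusted p = 0.0199). Nsg1, an endosomal protein of neurons, and Fam131c complete the 15 genes of lowest p, at 1.14 ± 0.13 and 1.17 ± 0.13.

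Of 20 mature OSN markers, all were tested, all lay above 0 and all were higher in all 3 pairs (18.4% of all genes tested were). Of these markers 4 passed the test (Omp, Gng13, Stoml3 and Kirrel2) and 0 were lower. Kirrel2 is also on the axon sorting list, where it was counted above. The median log2 fold change of the 20 markers was 0.78 (0.63 without the P22 mice). Of 16 immature markers, 0 were called, 10 lay above 0, and the median was 0.03. The difference between the lists was not tested. Summed over the list, the mature markers took 7829, 12246 and 6139.7 CPM in the control mice and 15597, 20059 and 14162 CPM after exposure, and the immature ones 3311, 3917 and 3449 and 3706, 3599.5 and 3659 CPM. The pairs thus differed 1.64- to 2.31-fold in the first sum and 0.919- to 1.12-fold in the second. ORs, which mature OSNs express, had a median log2 fold change of 1.13 over the 448 tested, with 8 called higher and 0 lower.

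Omp, the olfactory marker protein of mature OSNs (chromosome 7, 98143359 to 98145502), had 4460.0, 6512 and 3298 CPM in the control mice and 9234, 11982 and 8711 CPM at 100% heptanal. The P21 mouse was the highest of each group, and the groups did not overlap (log2 fold change 1.11 ± 0.16, adjusted p = 0.0311, and 1.12 with 0.225 without P22). Stoml3, a membrane protein of OSN cilia, and Gng13, the G protein gamma subunit that pairs with Gnal, had 469.5, 896 and 383 against 1143, 1708 and 1057 CPM and 101, 50.03 and 43.2 against 374, 105 and 100.1 CPM. Stoml3 did not overlap between groups, while the P22 control held as much Gng13 as the lower exposed mice (log2 fold changes 1.22 ± 0.16 and 1.41 ± 0.19, adjusted p = 0.0231 and 0.023).

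Gnal, Adcy3 and Cnga2, the core of the transduction cascade, did not pass the test. Gnal, the olfactory G protein, had 848, 1306 and 549 CPM in the control mice and 1584, 1786 and 1094 CPM after exposure (0.78 ± 0.19, adjusted p = 0.173). Adcy3, the cyclase, had 329, 421 and 177 and 375, 459.6 and 299 CPM (0.34 ± 0.17, adjusted p = 0.536), and Cnga2, the main channel subunit, 121, 327 and 158 and 410.2, 506 and 337 CPM (1.27 ± 0.60, adjusted p = 0.51). Gnal and Adcy3 overlapped between groups and Cnga2 did not, although its spread between litters was wide, and leaving out mice moved its log2 fold change from 0.38 to 1.61 (0.84 without the P22 mice). The channel subunits Cnga4 and Cngb1 and the chloride channel Ano2 were at 0.48, 0.79 and 0.57, the phosphodiesterases Pde4a and Pde1c at 0.54 and 0.90, Ric8b, which stabilizes Gnal, at 0.53, and the OR chaperones Rtp1, Rtp2 and Reep1 at 0.73, 0.77 and 0.84, none past the threshold. Of these Pde1c and Rtp1 also varied, from 0.29 to 1.62 and from 0.10 to 1.01 when mice were left out.

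S100a5, a calcium-binding protein whose level in OSNs follows odour activity, had 9.76, 99.9 and 51.4 CPM in the control mice and 27.4, 222 and 108 CPM at 100% heptanal. Every exposed mouse was above its own littermate, but the litters differed by more than the groups did (log2 fold change 1.22 ± 0.55, adjusted p = 0.493). Slc17a6, the vesicular glutamate transporter, and the exchanger Slc24a4 were at 0.97 ± 0.38 and 0.53 ± 0.23, and the factor Ebf2 was the lowest of the list.

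**Figure D3:**
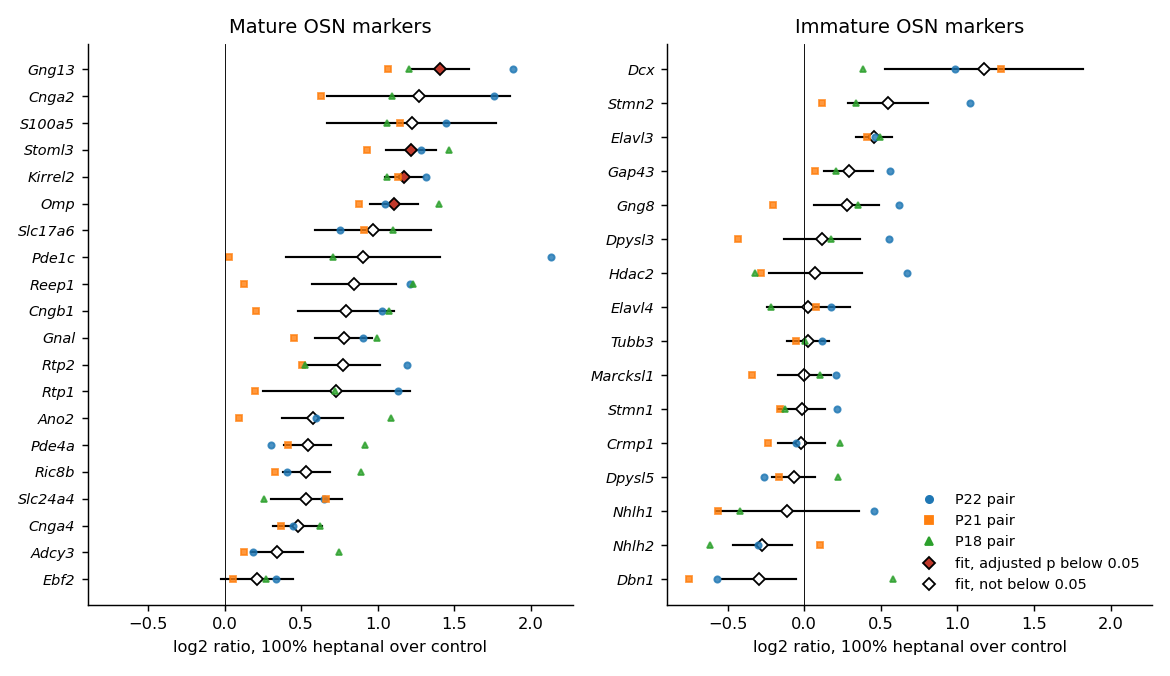
Log2 ratios of 100% heptanal over control (x axes, TMM scaling) for 20 mature and 16 immature OSN markers, with the 3 littermate pairs as coloured points and the fit as a diamond with its SE, red where the adjusted p was below 0.05. All mature markers lie above 0 on this scale in every pair, and the immature markers lie on both sides of 0.

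Because all mature OSN markers lay above 0, the 40 genes were also measured relative to them, with libraries scaled by the sum of Omp, Adcy3, Ano2, Cnga2 and Gnal. Omp made up 74.7% to 82.5% of that sum in the 6 mice, so the scale mostly follows Omp. This moved the median log2 fold change of non-OR genes to -1.05, and 8 genes were then called higher and 9657 lower, in place of 40 and 0. The genes that fall below 0 on this scale are given with the alternatives. Of the 40, 27 lay within 0.25 of 0 relative to the markers, 13 lay above 0.25, and 8 lay below 0. Fosb, Pcdh10, Egr1, Fos, Nr4a1 and Btg2 were still called higher, at 3.97, 1.65, 1.92, 1.65, 1.13 and 0.73 (adjusted p from 0.000825 to 0.0138).

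The next genes relative to the markers were Tsc22d1, Nrn1l, Hs3st1, Dusp14, BC037704, Gng13 and Cartpt, at 0.53, 0.52, 0.51, 0.39, 0.38, 0.37 and 0.34. Their SE was 0.21 to 0.30 and their adjusted p 0.0529 to 0.272. Stoml3 and Kirrel2 were at 0.19 and 0.14, and Omp at 0.08, which its weight in the sum fixes near 0. With 8 transduction genes that leave out Omp as the scale, chosen after the data were seen, the median non-OR gene moved to -0.67, and Fosb, Pcdh10, Egr1 and Fos were called higher, with 10 genes lower. The median of the 40 genes was 0.12 relative to the 5 markers and 0.49 relative to the 8 genes. Omp and the other markers are themselves among the genes compared, so this scale assumes that they did not change.

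**Figure D4:**
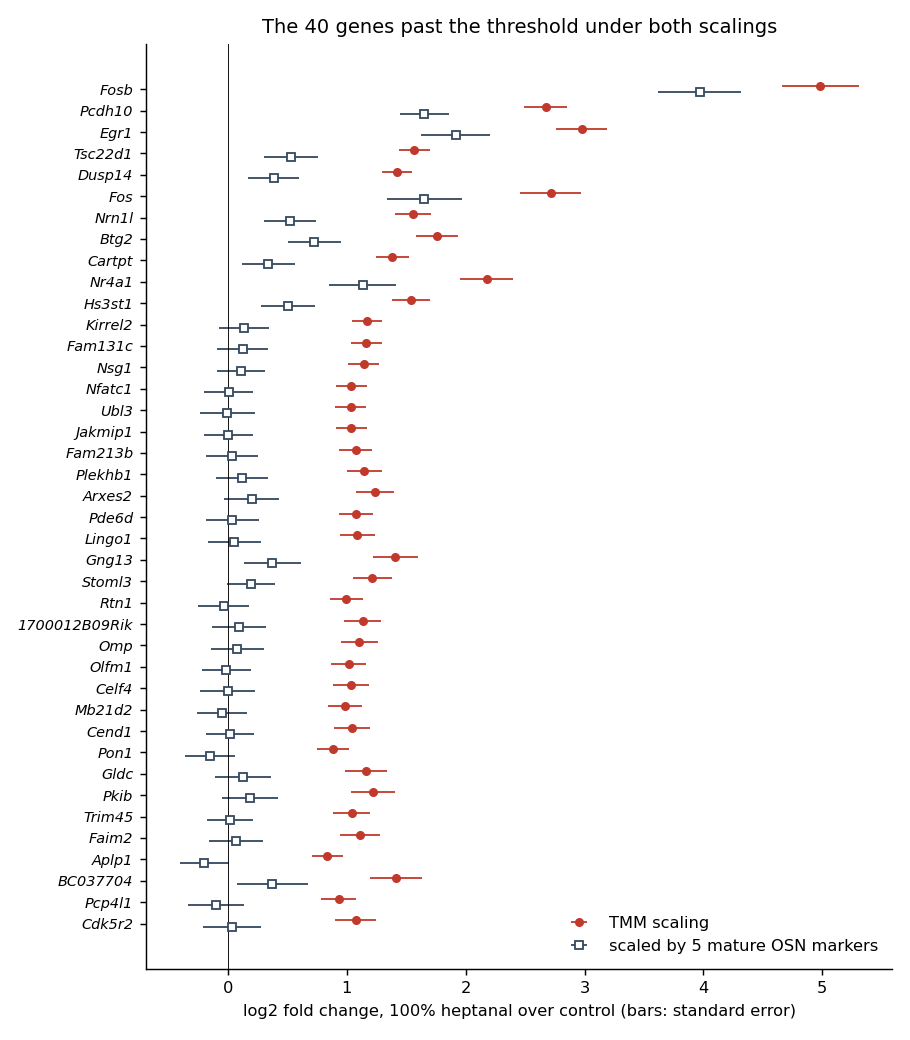
Log2 fold change of 100% heptanal over control (x axis, bars are the SE) for the 40 genes past the threshold, in order of p, with TMM scaling (red circles) and with libraries scaled by 5 mature OSN markers (open squares). Fosb, Pcdh10, Egr1, Fos, Nr4a1 and Btg2 keep a clear distance from 0 under both scalings, and 27 of the 40 lie within 0.25 of 0 under the second.

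The remaining 22 of the 40 genes rose 1.79- to 2.67-fold. They include the Cdk5 activator Cdk5r2, the amyloid precursor relative Aplp1, the neuronal RNA-binding protein Celf4, the reticulon Rtn1, the secreted glycoprotein Olfm1, the axonal membrane protein Lingo1, the neuronal anti-apoptotic protein Faim2, the cell cycle exit factor Cend1 and the microtubule-binding Jakmip1, at 1.07, 0.84, 1.04, 1.00, 1.02, 1.09, 1.11, 1.04 and 1.04. Others act in lipid-anchored protein traffic or in signalling, namely Pde6d, Plekhb1, Ubl3, the calmodulin-binding relative Pcp4l1 and the protein kinase A inhibitor Pkib, at 1.08, 1.15, 1.03, 0.93 and 1.22. Enzymes among them were the esterase Pon1 (0.88 ± 0.13), the glycine decarboxylase Gldc (1.16 ± 0.17) and the prostaglandin synthase Fam213b (1.07 ± 0.14). The ubiquitin ligase Trim45 and the little-studied 1700012B09Rik, Arxes2, BC037704 and Mb21d2 were at 1.04, 1.14, 1.24, 1.42 and 0.99. Pon1 had 44.3, 185 and 178 CPM in the control mice and 96.1, 301 and 321 CPM after exposure, so that the P22 mice were lowest in both groups and the ranges overlapped.

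In the other cell types of the tissue 0 genes were called, and the lists leaned to different sides of the median gene. Sustentacular markers, mostly odorant-metabolizing enzymes, had a median of 0.45, with 12 of 15 above 0 and 5 at an unadjusted p below 0.05. Cbr2, a carbonyl reductase, had 2109, 1899 and 1839 CPM in the control mice and 3146, 3086 and 4303 CPM at 100% heptanal, without overlap (0.85 ± 0.18, adjusted p = 0.115). The cytochromes P450 Cyp2g1, Cyp2f2 and Cyp2a5 were at 0.86 ± 0.22, 0.34 ± 0.14 and 0.28 ± 0.14 (adjusted p = 0.184, 0.45 and 0.515), and the glucuronosyltransferase Ugt2a1, low in the P22 control alone, at 0.98 ± 0.59 (adjusted p = 0.624). Reads that also mapped elsewhere gave 48.6% of the counts of Cyp2g1 and 96.0% of those of Cyp2a5.

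Gland and basal cell lists leaned the other way. Of 17 tested markers of Bowman's glands and secretory cells, 16 lay below 0, 9 of them at an unadjusted p below 0.05, and the median was -0.49. Obp1a and Obp2a, odorant-binding proteins, had 4086, 1628 and 808 against 1974, 668 and 172 CPM and 28868, 25765 and 18909.5 against 20755, 13579 and 9290.0 CPM, lower in all 3 pairs with overlapping groups (-1.55 ± 0.29 and -0.83 ± 0.22, adjusted p = 0.0774 and 0.223). The lipocalin Lcn11 was at -0.85 ± 0.23, and the lowest p of any gene below 0 was that of Dnase1, an endonuclease of secretions, with 339.8, 320.5 and 119 and 195, 126 and 34.2 CPM (-1.33 ± 0.24, adjusted p = 0.0697).

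Among 16 globose basal and proliferating cell markers the median was -0.43, with 2 above 0 and 7 at an unadjusted p below 0.05 on the low side. Mcm2, a replication helicase subunit, had 67.4, 61.2 and 60.9 CPM in the control mice and 31.4, 39.0 and 35.1 CPM at 100% heptanal, and Hes6, a factor of neuronal precursors, 241, 268 and 294 and 189, 193 and 220.1 CPM. Neither gene overlapped between groups (log2 fold change -0.84 ± 0.17 and -0.41 ± 0.12, adjusted p = 0.104 and 0.252). The mitotic kinase Cdk1 was at -0.86 ± 0.21, and Pcna at -0.38 ± 0.14 with 95.6% of its counts from reads with several places. Horizontal basal markers had a median of -0.28, with Itga6 at -0.38.

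Blood and connective tissue varied by postnatal day, which here is also the litter. All 8 tested red cell genes were lower in all 3 pairs (18.1% of all genes tested were), with a median of -0.79. Their sum was 14456, 16972 and 2376 CPM in the control mice and 9954, 7832 and 1452 CPM at 100% heptanal, lowest at P18 in both groups. Hba-a1 and Hba-a2 share all their reads and the rescue scheme gave them equal values, so they are not independent members. Alas2, the heme synthesis enzyme of red cells, was at -0.97 ± 0.22 (adjusted p = 0.157). The share of blood or bone in a dissected tissue and its part in the CPM of other genes was not tested.

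Fibroblast and bone markers had a median of -0.47 (Col1a1 -0.47, Col1a2 -0.53), endothelial markers -0.21 (Eng -0.63), ensheathing glia -0.17 (Sox10 -0.46), macrophages and leukocytes -0.16, microvillous and tuft cells -0.10, and respiratory ciliated cells 0.00 (Rsph1 0.34). Neutrophil and skeletal muscle lists had 4 and 3 tested genes of low counts (Ngp -1.12, Ckm -1.54, Acta1 -1.28), with medians of -0.76 and -1.28. No gene on these 8 lists was called. Without the P22 mice the medians of the endothelial, glial, macrophage and neutrophil lists were -0.46, -0.35, -0.51 and -1.41.

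**Figure D5:**
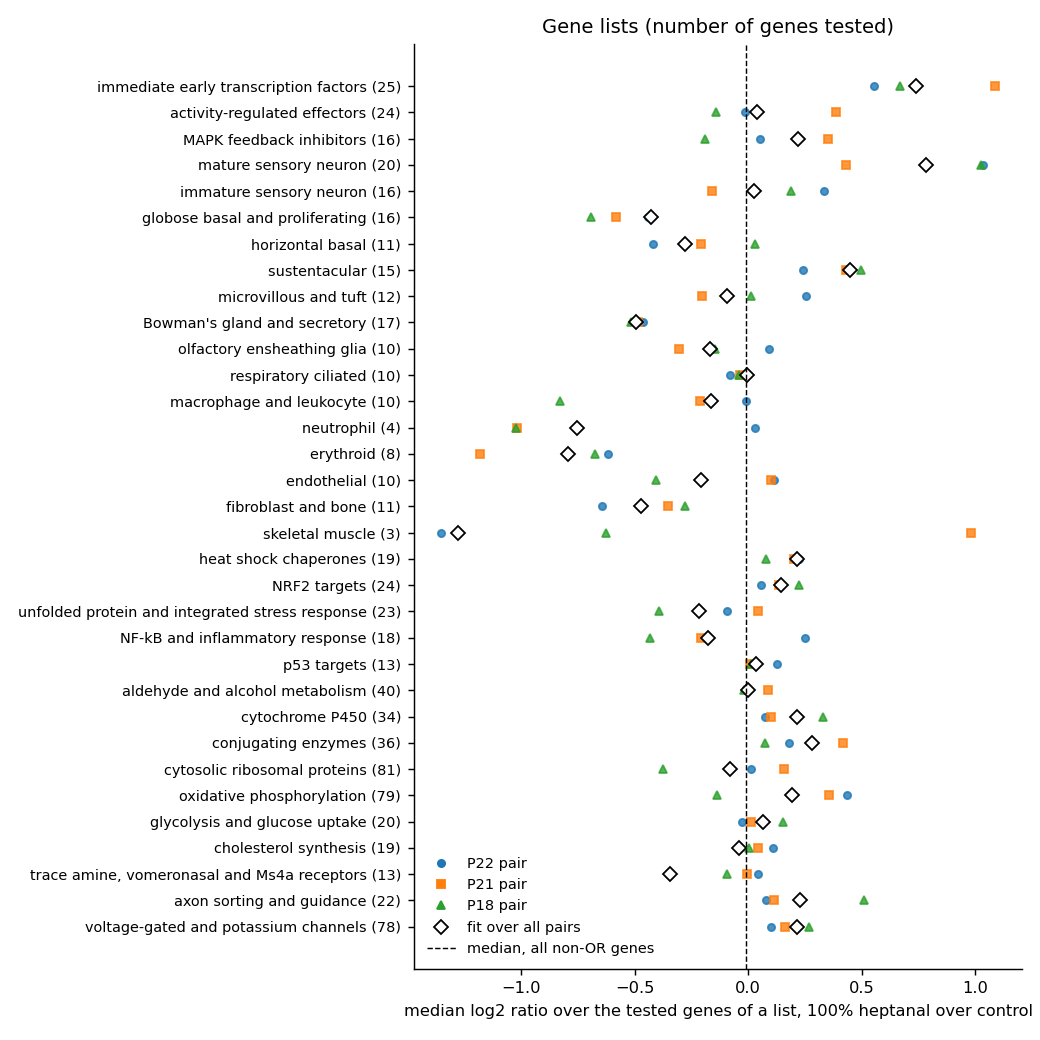
Median log2 ratio of 100% heptanal over control (x axis, TMM scaling) over the tested genes of 33 lists, whose number is in brackets, with the 3 littermate pairs as coloured points and the fit as a diamond. The dashed line is the median of all non-OR genes, and the immediate early and mature OSN lists lie farthest to its right in the fit, at 0.74 and 0.78.

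The stress lists gave 1 call, that of Btg2. Of 19 tested heat shock chaperones, 16 lay above 0 with a median of 0.22 and 0 were called. Without the P22 mice that median was 0.07, and 1 gene, Hspa1a, was called. Hspa1a, the inducible Hsp70, had 21.2, 11.7 and 14.0 CPM in the control mice and 18.1, 172 and 133 CPM at 100% heptanal. The P21 and P18 mice were thus far above their littermates while the P22 pair did not differ in that direction, and the log2 fold change was 2.74 ± 0.79 (adjusted p = 0.248). Without the P22 mice its log2 fold change was 3.58 with an adjusted p of 0.0362, and 62.1% of its counts came from reads that also mapped elsewhere. The cochaperone Dnajb1 had the same pattern, with 82.5, 96.7 and 101 and 96.6, 224 and 205 CPM (0.86 ± 0.24, adjusted p = 0.241).

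Of 24 targets of NRF2, the factor that electrophiles such as reactive aldehydes release, all were tested, 21 lay above 0 and the median was 0.15. Nqo1, a quinone reductase, had 83.2, 113 and 107 CPM in the control mice and 194, 255 and 208 CPM after exposure, and Srxn1, sulfiredoxin, 27.1, 49.3 and 51.9 and 79.4, 109 and 87.7 CPM. Both were separate between groups and missed the threshold (log2 fold change 1.13 ± 0.20 and 1.19 ± 0.29, adjusted p = 0.0697 and 0.175). Hmox1, heme oxygenase, was low in every mouse, with 4.80, 2.96 and 3.54 and 3.43, 1.68 and 2.85 CPM (-0.52 ± 0.46, adjusted p = 0.754).

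The unfolded protein and integrated stress response list had a median of -0.22 over 23 tested genes, 6 of them above 0, with Xbp1 at -0.31 ± 0.18 and Ppp1r15a at 0.36 ± 0.16. The NF-kB and inflammatory list had -0.18 over 18 genes, 7 of them above 0, with Nfkb1 at -0.39. On that list 3 genes were higher and 6 lower in all 3 pairs, and Cxcl1 had an unadjusted p below 0.05 on the low side. The cytokines Il1b and Il33 were above 0 in all 3 pairs, at 1.72 ± 0.43 and 1.05 ± 0.29 (adjusted p = 0.184 and 0.237), and Il1b had at most 17.7 CPM in a mouse.

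The lists of metabolic genes gave 0 calls, and the called enzymes Pon1, Gldc and Fam213b are on none of them. Heptanal is an aldehyde that aldehyde dehydrogenases oxidize, and the 40 tested genes of aldehyde and alcohol metabolism had a median of 0.00, with 20 above 0 (unadjusted p below 0.05 in 6 on the high side and 2 on the low side). Aldh1a1, a cytosolic aldehyde dehydrogenase, had 44.6, 165 and 119 CPM in the control mice and 97.2, 269 and 155 CPM at 100% heptanal. Each exposed mouse was above its littermate, with overlap between the groups (log2 fold change 0.76 ± 0.22, adjusted p = 0.256). Cytochromes P450 and conjugating enzymes had medians of 0.22 over 34 and 0.28 over 36 tested genes, with Gstm1 at 0.46.

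Oxidative phosphorylation genes had a median of 0.19, with 68 of 79 above 0, but the P18 pair lay on the other side, at a median of -0.14 against 0.43 and 0.36 in the P22 and P21 pairs, and the median without the P22 mice was 0.09. Glycolysis, cholesterol synthesis and ribosomal protein genes had medians of 0.07, -0.04 and -0.08 (Pgam1 0.26). Of 135 voltage-gated and potassium channel genes, 78 were tested, 0 were called, and the median was 0.22, and 12 had an unadjusted p below 0.05 on the high side and 1 on the low side. Cacnb3, a calcium channel beta subunit, had 252, 223 and 196 CPM in the control mice and 387, 352 and 329 CPM at 100% heptanal, without overlap (log2 fold change 0.67 ± 0.12, adjusted p = 0.0684), and the potassium channel Kcnc4 was at 0.74 ± 0.19.

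Chemosensory receptors outside the OR family were mostly too low to compare. Of 365 trace amine-associated, vomeronasal, formyl peptide and Ms4a genes, 212 had 0 counts in all 6 mice and 13 were tested, 0 of which were called. The tested ones summed to between 9.76 and 29.9 CPM in a mouse, so their comparison rests on few counts. Taar7e alone had an unadjusted p below 0.05, on the low side.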

How the data were processed

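The study's methods state that reads were aligned to mm10 with Bowtie and counted on genes with BEDTools, with their own OR gene models, and versions are not given in the sources used here. The authors deposited 1 headerless table per mouse, with counts of uniquely mapped reads and, in the last column, estimated counts in which reads of several places were shared out by a rescue scheme. Rescued reads made up 23.9% to 30.5% of a library, so genes with close copies depend on that scheme. Such reads gave 83.6% of the counts of Gstm1, 99.9% of those of Pgam1 and 40.2% of those of the called Arxes2. The estimated counts were rounded.

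Quasi-likelihood fits in edgeR 4.0.16 (R 4.3.3, default filterByExpr, TMM scaling) took all 9 mice with the postnatal day as a block, for the contrast of 100% heptanal minus control. P-values were adjusted by Benjamini-Hochberg over 14930 genes, with a threshold of 0.05. Groups and days came from the labels, and pairing was checked by the correlation of deviations from group means. The SE of a log2 fold change is its size over the root of the F statistic. Alternatives included DESeq2 1.42.0, other scalings and filters, and leaving out mice. The fits were tested on simulated data. Coordinates are from GENCODE M21 on GRCm38, the same build as mm10, and plots were drawn with matplotlib 3.10.9.

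The genes and the 33 lists were chosen with earlier results of these data known. Named were the 15 genes of lowest p that were higher in all pairs (and the 10 lower ones, had any passed), from each list the 4 called genes of lowest p or, where none was called, the 2 most abundant, and 10 fixed genes (Fos, Fosb, Arc, Egr1, Npas4, Nr4a1, Omp, Hmox1, Hspa1a, Aldh1a1). Genes of the rule that were not called, not fixed and within 0.25 of 0 are given by counts only. The other called genes, the rest of the immediate early and mature OSN lists, and Nptx2, Gem, Dusp1, Nqo1, Srxn1, Dnajb1, Obp1a, Lcn11, Dnase1, Mcm2, Cdk1, Alas2, Il1b and Cyp2g1 were named after their values were seen.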

Additional observations from a re-analysis of the deposited data

Results flagged for a closer look

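The 3 mice given 1% heptanal are outside the comparison of 100% heptanal with control. Fosb is given because, among the 5 genes that changed over 4-fold at 100% heptanal, it alone separated these mice from the controls. These mice had 6.49, 6.60 and 8.86 CPM of Fosb (mean 7.32), and all lay above the 3 controls at 3.87, 2.40 and 1.77 CPM. The difference was not tested, and the same controls had served to pick the 5 genes. The share of all genes with such a gap at 1% heptanal was not counted. Of the other genes that changed over 4-fold at 100% heptanal, Pcdh10, Egr1, Fos and Nr4a1 had means of 53.1, 40.9, 36.2 and 82.8 CPM at 1% heptanal and overlapped with the controls.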

How the results depend on the processing

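Of the 40 genes called higher, 40 were above 0 in each alternative other than the scalings by neuron markers, and in these the direction of 8 turned. The block by postnatal day set most of the calls. It is used because same-day mice are littermates and because the deviations of same-day control and 100% heptanal mice from their group means correlated at 0.563 to 0.730 (3 pairs). Control and 100% heptanal mice of different days correlated at -0.565 to 0.219 (6 pairs). The part of the P22 mice, which stood apart, in these correlations was not tested. Without the replicate block 2 genes were higher and 0 lower. With the block, the counts of genes higher and lower were 103 and 12 in the 6 mice alone, 179 and 35 with DESeq2, 40 and 0 with RLE size factors, 58 and 2 with all genes kept, 39 and 0 for uniquely mapped reads, 38 and 0 with p adjusted over non-OR genes alone, 8 and 9657 scaled by 5 mature OSN markers, and 4 and 10 scaled by 8 transduction genes (an alternative added after the data were seen). Leaving out mice gave 1 to 14 genes higher and 0 lower. The cause of the differences between tools and between sets of mice was not tested. The residual degrees of freedom were 4 with all 9 mice.

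Named genes changed sign only where a scaling moved the median non-OR gene (to -1.05 and -0.67), apart from Pcna and 4 genes in fits that left out mice. Pcna, below 0 in the main fit, was 0.10 with uniquely mapped reads. The 4 genes were Arc (-0.58 to 0.54), Ms4a7, a macrophage gene (-1.16 to 0.080), S100a9, a neutrophil gene (-1.25 to 0.68), and Ugt2a1 (-0.11 to 1.44), none of them called. Arc, Ms4a7 and S100a9 turned above 0 and Ugt2a1 turned below 0. Scaled by the 5 mature OSN markers, the called genes that turned were Celf4 -0.00037, Ubl3 -0.0055, Olfm1 -0.014, Rtn1 -0.036, Mb21d2 -0.047, Pcp4l1 -0.10, Pon1 -0.15 and Aplp1 -0.20. The genes without a call that turned were Slc17a6 -0.047, Junb -0.049, Ugt2a1 -0.051, Pde1c -0.062, Atf3 -0.085, Reep1 -0.16, Cyp2g1 -0.17, Dnajb1 -0.18, Cbr2 -0.19, Dusp1 -0.20, Cngb1 -0.23, Gnal -0.24, Rtp2 -0.26, Aldh1a1 -0.26, Rtp1 -0.28, Kcnc4 -0.28, Jun -0.29, Maff -0.30, Fosl2 -0.35, Cacnb3 -0.36, Ier2 -0.39, Ano2 -0.44, Pde4a -0.48, Ric8b -0.49, Slc24a4 -0.51, Cnga4 -0.55, Gstm1 -0.58, Jund -0.58, Klf10 -0.65, Adcy3 -0.68, Ppp1r15a -0.68, Rsph1 -0.70, Cyp2f2 -0.70, Cyp2a5 -0.76 and Pgam1 -0.78. Scaled by the 8 transduction genes, the genes that turned were Fosl2 -0.014, Ano2 -0.060, Pde4a -0.093, Ric8b -0.10, Slc24a4 -0.14, Cnga4 -0.17, Gstm1 -0.18, Jund -0.21, Klf10 -0.28, Ppp1r15a -0.28, Adcy3 -0.29, Cyp2f2 -0.32, Rsph1 -0.34, Cyp2a5 -0.37 and Pgam1 -0.41, none of them called.

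Depth limits the lowest genes. The smallest of the 6 libraries held 6401014 counts, at which 3 counts are 0.469 CPM, so Egr3, Nr4a3 and most chemosensory receptors outside the OR family could not be compared, and the tests of Npas4 and Egr4 rest on few counts. These floors cover counting error only, since PCR products were counted without molecular identifiers, while the SEs of the fits include the spread between mice.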
